A study of Mus musculus with 12 samples.

Results

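The genes described are *Il10*, which encodes the cytokine interleukin 10, *Il10ra* and *Il10rb*, which encode the chains of its receptor, and the genes of 5 transcription factors that act on *Il10* in T cells, *Maf*, *Prdm1*, *Nfil3*, *Ahr* and *Bhlhe40*. They were taken by gene symbol from the deposited table, in which each symbol had 1 row, so that they are 8 of 45777 genes. All 8 were among the 23585 genes with a read count above 0 in at least 3 libraries, which were tested, and their counts ranged from 455 to 35335 per library. RNA was sequenced from CD4+ T cells of the spleens of wild-type Balb/c mice aged 7 weeks, as the sample labels give them, and the study's methods name B6 mice instead. All cells were cultured for 3 days with an antibody to CD3 at 0.5 ug/mL, which activates T cells through their antigen receptor. The 4 groups of 3 libraries received this antibody alone (anti-CD3), with *L. acidophilus*, a lactic acid bacterium given as heat-killed cells in the study's methods, with FK506 (tacrolimus, an inhibitor of the phosphatase calcineurin), or with both (the combination). The labels give no dose of *L. acidophilus* or FK506 for these libraries, and nothing says that the 3 libraries of a group came from separate mice, so that the p-values measure the spread between these libraries only, which may be technical.

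IL-10 is a cytokine that restrains inflammation, and activated helper T cells of several kinds can make it. It binds a receptor of 2 chains, of which IL-10RA is particular to IL-10 and IL-10RB is shared with the receptors of related cytokines, and the signal runs through the kinases JAK1 and TYK2 to the transcription factor STAT3. In T cells c-Maf and Blimp-1 (the product of *Prdm1*) act together on the *Il10* gene, AHR and NFIL3 have also been described as activators of it, and BHLHE40 represses it. The study measured IL-10 protein in treated cultures, and these libraries give the transcripts of the cytokine, its receptor and its regulators in the CD4+ T cells.

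The libraries held 45416397 to 64658165 counts, and replicate 1 of each group was the deepest, with 63113961 to 64658165. Markers of CD4+ T cells were present throughout, with a summed FPKM (fragments scaled to transcript length and library size) of 7 genes from 1264 to 2081 in a library. The summed FPKM of 10 B-cell markers was 41.1 to 66.7 in the anti-CD3 libraries, 27.7 to 39.6 in the *L. acidophilus* libraries, 245 to 488 in the FK506 libraries and 140 to 166 in the combination libraries, and none of the 10 was at 0 in a whole group. The sum of 5 plasma-cell markers was 112 to 185, 88.2 to 126, 160 to 348 and 102 to 110 in the same order, but its members went different ways in the combination against anti-CD3 alone, where *Jchain* (mean FPKM 0.278 and 20.5) and *Derl3* (0.530 and 2.07) rose, *Xbp1* (124 and 49.3) and *Sdc1* (8.45 and 2.52) fell, and *Mzb1* was not called. The sum of 10 myeloid markers was 2.80 to 4.36, 3.98 to 8.05, 7.23 to 22.8 and 58.9 to 81.5, with *S100a8* at 0 in all 12 libraries and *Csf1r* at 0 with anti-CD3 alone. *Foxp3*, the factor that defines regulatory T cells, had an FPKM of 4.45 to 6.20, 7.53 to 24.7, 21.9 to 44.8 and 95.7 to 108 in that order. Of the 3 markers of these cells *Foxp3* and *Ikzf2* (mean FPKM 0.997 and 29.2) rose in the combination against anti-CD3 alone, while *Il2ra*, which activated T cells also express, fell (477 and 245), and the sum of the 3 was 420 to 555, 373 to 498, 342 to 456 and 346 to 394. In such bulk RNA, fewer cells of a type and less RNA per cell cannot be told apart, and the part of these cell types in the results that follow was not tested.

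*Nfil3* fell in the combination against each of the other groups, *Bhlhe40* fell with FK506, and no other gene of the 8 was called against anti-CD3 alone by edgeR over all 12 libraries, with TMM scaling factors and no block on the replicate number. In that fit *Il10* itself was not called in any comparison, and neither was *Maf* or *Prdm1*, whose replicate 1 was at least 1.75-fold above both other replicates in every group but the combination. A gene was called changed when its adjusted p in edgeR's quasi-likelihood test was under 0.05 and its change at least 2-fold. By this rule 1 of the 8 genes was called for the combination against anti-CD3 alone, where 24.6% of all genes tested were called, 1 for FK506 against anti-CD3 alone (10.6%), 1 for the combination against FK506 (7.44%) and 1 for the combination against *L. acidophilus* (16.6%). For *L. acidophilus* against anti-CD3 alone 0 of the 8 were called (0.187%), and 0 were called by DESeq2 or by limma, although 3 had an unadjusted p under 0.05 in edgeR. For FK506 against *L. acidophilus* 0 were called (4.99%), also by DESeq2 and limma, and 4 had an unadjusted p under 0.05 in edgeR. The median log2 fold change of the 8 genes for the combination against anti-CD3 alone was -0.38, and that of all genes tested was 0.02. As a second background, the FPKM values of the groups did not overlap for 32.1% of all genes tested between FK506 and anti-CD3 alone, 17.8% between *L. acidophilus* and anti-CD3 alone, 50% between the combination and anti-CD3 alone, 41.1% between the combination and FK506, 50.2% between the combination and *L. acidophilus* and 28.9% between FK506 and *L. acidophilus*.

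**Figure D1:**
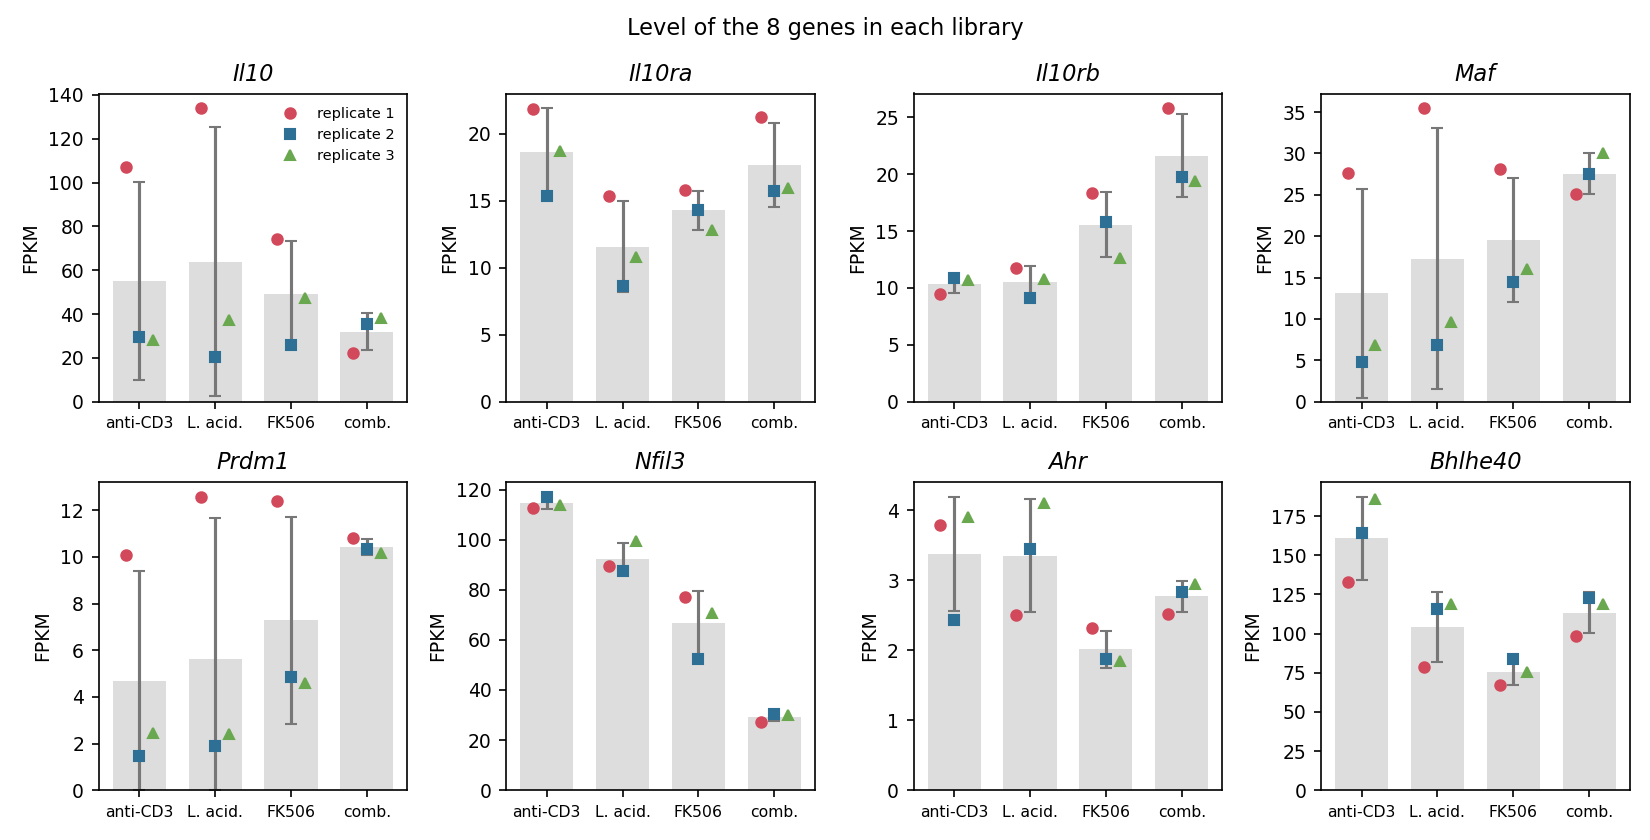
FPKM of the 8 genes in each of the 12 libraries, grouped by treatment (anti-CD3 alone, *L. acidophilus*, FK506, combination), with points for replicates 1, 2 and 3, grey bars for the mean and error bars for the SD of 3 libraries. *Nfil3* falls from 115 to 29.3 with little spread, while *Il10*, *Maf* and *Prdm1* have a replicate 1 far above the others with anti-CD3 alone and *L. acidophilus*.

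*Il10* (gene ID 16153, chr1:131019845-131024970 in GRCm38.p6) had an FPKM of 107, 29.7 and 28.2 in replicates 1, 2 and 3 with anti-CD3 alone and of 134, 20.3 and 37.5 with *L. acidophilus*. With FK506 it was 74.4, 25.8 and 47.2, and with the combination 22.4, 35.3 and 38.0. The groups overlapped in all 6 comparisons, and replicate 1 was the highest library of each group except the combination, where it was the lowest. The means were 55.0 ± 45.3, 63.9 ± 61.3, 49.1 ± 24.3 and 31.9 ± 8.34 (SD, n = 3), so that the lowest mean belonged to the group with the smallest spread. The log2 fold change of the combination against anti-CD3 alone was -1.01 (standard error 0.68, edgeR adjusted p = 0.253). In replicates 2 and 3 alone, an alternative chosen after seeing the data, it was 0.13 (standard error 0.34, edgeR adjusted p = 0.794), with means of 28.9 with anti-CD3 alone, 28.9 with *L. acidophilus*, 36.5 with FK506 and 36.7 with the combination. The direction of the *Il10* difference in the combination therefore turned on replicate 1, and neither value passed the test.

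*Il10ra* (gene ID 16154, chr9:45253837-45269149), the chain that binds IL-10 itself, had an FPKM of 21.8, 15.4 and 18.7 with anti-CD3 alone, 15.3, 8.60 and 10.8 with *L. acidophilus*, 15.8, 14.3 and 12.8 with FK506, and 21.3, 15.7 and 16.0 with the combination. It was lowest with *L. acidophilus*, in which every library lay below every anti-CD3 library and below every combination library. The log2 fold change of *L. acidophilus* against anti-CD3 alone was -0.77 (standard error 0.21, edgeR adjusted p = 0.129), and that of the combination against *L. acidophilus* was 0.49 (standard error 0.21, edgeR adjusted p = 0.0924). The replicate number pairs the libraries in both comparisons, and with it as a block the differences were -0.79 (standard error 0.12, edgeR adjusted p = 0.0341) and 0.50 (standard error 0.12, edgeR adjusted p = 0.00838), under the adjusted p limit but short of 2-fold. The block was fitted over all 12 libraries, so that these p-values also assume the same replicate shifts in groups that the number did not pair. The combination and anti-CD3 alone overlapped and differed by -0.28 on the log2 scale (edgeR adjusted p = 0.305). The microRNA gene *Mir7086* lies within *Il10ra* over 65 bases.

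*Il10rb* (gene ID 16155, chr16:91406157-91425834), the shared chain, had an FPKM of 9.49, 10.9 and 10.7 with anti-CD3 alone and of 11.8, 9.08 and 10.8 with *L. acidophilus*. With FK506 it was 18.3, 15.8 and 12.6, and with the combination 25.8, 19.7 and 19.4. Every FK506 library was above every library without FK506, and every combination library was above every FK506 library. Against anti-CD3 alone the combination was 1.84-fold higher (log2 fold change 0.88, standard error 0.16, edgeR adjusted p = 0.00109), and against *L. acidophilus* 1.90-fold higher (log2 fold change 0.92, standard error 0.16, edgeR adjusted p = 0.0012), both short of the 2-fold limit, and without a fold limit 43.3% and 33.6% of all genes tested passed in these comparisons. With library totals only, without the TMM scaling factors, the same differences were 1.08 and 1.05 on the log2 scale and were called, and the difference from *L. acidophilus* was also called without *L. acidophilus* replicate 1 (log2 fold change 1.01) or without combination replicate 3 (1.01). The differences of FK506 from anti-CD3 alone (log2 fold change 0.49, edgeR adjusted p = 0.0538) and of the combination from FK506 (0.38, edgeR adjusted p = 0.121) did not pass. B-cell and myeloid markers were also higher in the FK506 and combination groups, as given above.

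*Maf* (gene ID 17132, chr8:115703253-115706894), which encodes the bZIP factor c-Maf, had an FPKM of 27.6, 4.74 and 6.85 with anti-CD3 alone and of 35.5, 6.82 and 9.61 with *L. acidophilus*. With FK506 it was 28.2, 14.4 and 16.1, and with the combination 25.1, 27.6 and 30.0. Replicate 1 was between 25.1 and 35.5 in all 4 groups, whereas in replicates 2 and 3 the combination had the highest values and anti-CD3 alone the lowest. Over 12 libraries the log2 fold change of the combination against anti-CD3 alone was 0.85 (standard error 0.67, edgeR adjusted p = 0.33). Without replicate 1 it was 2.11 (standard error 0.21, edgeR adjusted p = 0.000428), and leaving out only anti-CD3 replicate 1 gave 2.07 (edgeR adjusted p = 0.0181). Between the 8 libraries of replicates 2 and 3 FK506 was 1.32 above anti-CD3 alone (standard error 0.20, edgeR adjusted p = 0.00579), the combination 1.66 above *L. acidophilus* (standard error 0.20, edgeR adjusted p = 0.00118), and the combination 0.79 above FK506 (edgeR adjusted p = 0.0313, under 2-fold). Replicate 1 was left out after its values were seen, and *Maf* was among the genes in which it stood apart. The smaller standard errors and p-values without it partly follow from that choice.

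*Prdm1* (gene ID 12142, chr10:44437174-44528558), which encodes Blimp-1, a repressor that also drives plasma-cell formation, had a like pattern. Its FPKM was 10.1, 1.48 and 2.44 with anti-CD3 alone and 12.6, 1.89 and 2.39 with *L. acidophilus*. With FK506 it was 12.4, 4.85 and 4.57, and with the combination 10.8, 10.3 and 10.2. The 3 combination libraries lay within 10.2 to 10.8, just above the highest anti-CD3 library, and replicate 1 was between 10.1 and 12.6 in every group. The log2 fold change of the combination was 0.93 against anti-CD3 alone (standard error 0.78, edgeR adjusted p = 0.358) and 0.77 against *L. acidophilus* (standard error 0.78, edgeR adjusted p = 0.493). With the replicate number as a block, the latter was 1.42 (edgeR adjusted p = 0.0318), and 2 of the 8 genes, *Nfil3* and *Prdm1*, were called in place of 1 for the combination against *L. acidophilus*, where the block called 16.7% of all genes tested. The FPKM ratio of the combination to *L. acidophilus* was 0.859, 5.47 and 4.24 in replicates 1, 2 and 3, so that replicate 1 went the other way. Without replicate 1, *Prdm1* was 2.19 above anti-CD3 alone in the combination, a 4.58-fold difference (standard error 0.21, edgeR adjusted p = 0.000401), 2.11 above *L. acidophilus* (standard error 0.21, edgeR adjusted p = 0.000632) and 1.00 above FK506 (edgeR adjusted p = 0.0152, just under 2-fold), and FK506 was 1.20 above anti-CD3 alone (standard error 0.20, edgeR adjusted p = 0.00835). Leaving out anti-CD3 replicate 1 alone gave 2.24 against anti-CD3 alone (edgeR adjusted p = 0.0364), and leaving out *L. acidophilus* replicate 1 alone gave 2.16 against *L. acidophilus* (edgeR adjusted p = 0.0445). With the 8 libraries of replicates 2 and 3, 3 of the 8 genes (*Nfil3*, *Maf* and *Prdm1*) were called for the combination against anti-CD3 alone, where 25.8% of all genes tested were called, 3 (the same genes) for the combination against *L. acidophilus* (18.2%) and 3 (*Bhlhe40*, *Maf* and *Prdm1*) for FK506 against anti-CD3 alone (9.96%). As for *Maf*, replicate 1 was left out after its values were seen, and the p-values and calls of *Prdm1* partly follow from that choice. Plasma cells also express *Prdm1*, and among their markers *Jchain*, the joining chain of secreted antibodies, had an FPKM of 0.730, 0 and 0.104 with anti-CD3 alone, 4.03, 0.135 and 0.133 with *L. acidophilus*, 51.3, 12.1 and 11.6 with FK506 and 19.7, 20.5 and 21.3 with the combination. Like *Prdm1*, it was highest in replicate 1 of the first 3 groups and nearly level in the combination, whereas *Xbp1* and *Sdc1* fell there, and the part of plasma cells in the *Prdm1* values was not tested.

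The promoter of *Prdm1* is shown because c-Maf and other bZIP factors, and AHR, are themselves among the regulators measured here. The 250 bases before an annotated start of *Prdm1* (GRCm38.p6, minus strand, chr10:44458749-44458998, within the gene's full span) and of *Nfil3* (minus strand, chr13:52981040-52981289, likewise within its span) were taken from RefSeq, in which promoters of 2 of the 8 genes were matched. Capitals mark matches, on either strand, to the AP-1 site TGANTCA and to the xenobiotic response element core GCGTG, which AHR binds with its partner ARNT.
Prdm1: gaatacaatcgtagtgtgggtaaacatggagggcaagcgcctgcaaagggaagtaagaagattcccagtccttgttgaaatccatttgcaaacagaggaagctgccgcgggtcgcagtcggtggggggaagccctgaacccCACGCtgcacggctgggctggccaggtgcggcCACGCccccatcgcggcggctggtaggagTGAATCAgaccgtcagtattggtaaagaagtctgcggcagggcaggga
Nfil3: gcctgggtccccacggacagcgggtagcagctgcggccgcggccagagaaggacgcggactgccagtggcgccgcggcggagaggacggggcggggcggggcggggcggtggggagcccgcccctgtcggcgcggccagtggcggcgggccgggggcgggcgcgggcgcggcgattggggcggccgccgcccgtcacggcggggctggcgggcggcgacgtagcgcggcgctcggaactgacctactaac
The *Prdm1* window held 1 AP-1 site at 48 to 42 bases before the start and 2 xenobiotic response element cores at 109 to 105 and 77 to 73 bases before it, both on the opposite strand. An AP-1 site was found in 6.75% of 32851 promoter windows of this length, and the response element core in 28.2%. The *Nfil3* window held neither, and neither window held the letters of the NFAT core GGAAA (in 55.6% of windows), the half-site TGCTGA of a Maf recognition element (16.1%), the NFIL3 site TTANGTAA (2.06%), the E-box CACGTG (6.02%) or the Blimp-1 core GAAAG (51.5%). These are matches of letters in 1 window per gene and no measurement of binding.

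With anti-CD3 alone, *L. acidophilus* and FK506, *Il10*, *Maf* and *Prdm1* were all highest in replicate 1. In the combination replicate 1 was the highest for *Prdm1* but the lowest for *Maf* and *Il10*. The SD of log2 CPM (counts relative to library size) within groups was 0.99 for *Il10*, 0.96 for *Maf* and 1.11 for *Prdm1*, at the 98.9th, 98.8th and 99.3rd percentile of 12221 expressed genes, whose median was 0.20, and between 0.17 and 0.29 for the other 5 genes. With anti-CD3 alone and with *L. acidophilus*, replicate 1 was at least 2-fold above both other replicates for 101 of the 12221 genes (0.826%), among them *Il10*, *Maf* and *Prdm1*, and no other gene of the 8 was. In the combination none of the 8 genes was at least 2-fold higher or lower in replicate 1, where 155 of the 12221 genes (1.27%) were higher and 159 lower. Over the 12 libraries, which differ in treatment, depth and replicate, the Pearson correlation of log2 CPM was 0.98 between *Maf* and *Prdm1*, 0.59 between *Il10* and *Maf*, and 0.55 between *Il10* and *Prdm1*. After the group means were taken away it was 0.99, 0.95 and 0.91. *Bhlhe40* ran the other way within groups, with -0.91 against *Prdm1*, -0.87 against *Maf* and -0.83 against *Il10*. *Il10ra* ran with them, with 0.83 against *Prdm1*, 0.79 against *Maf*, 0.68 against *Il10* and -0.87 against *Bhlhe40*. These correlations are a description of 12 libraries, in which replicate 1 stood apart for 3 of these genes and was also the deepest. How many other genes reach such values within groups was not counted.

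**Figure D2:**
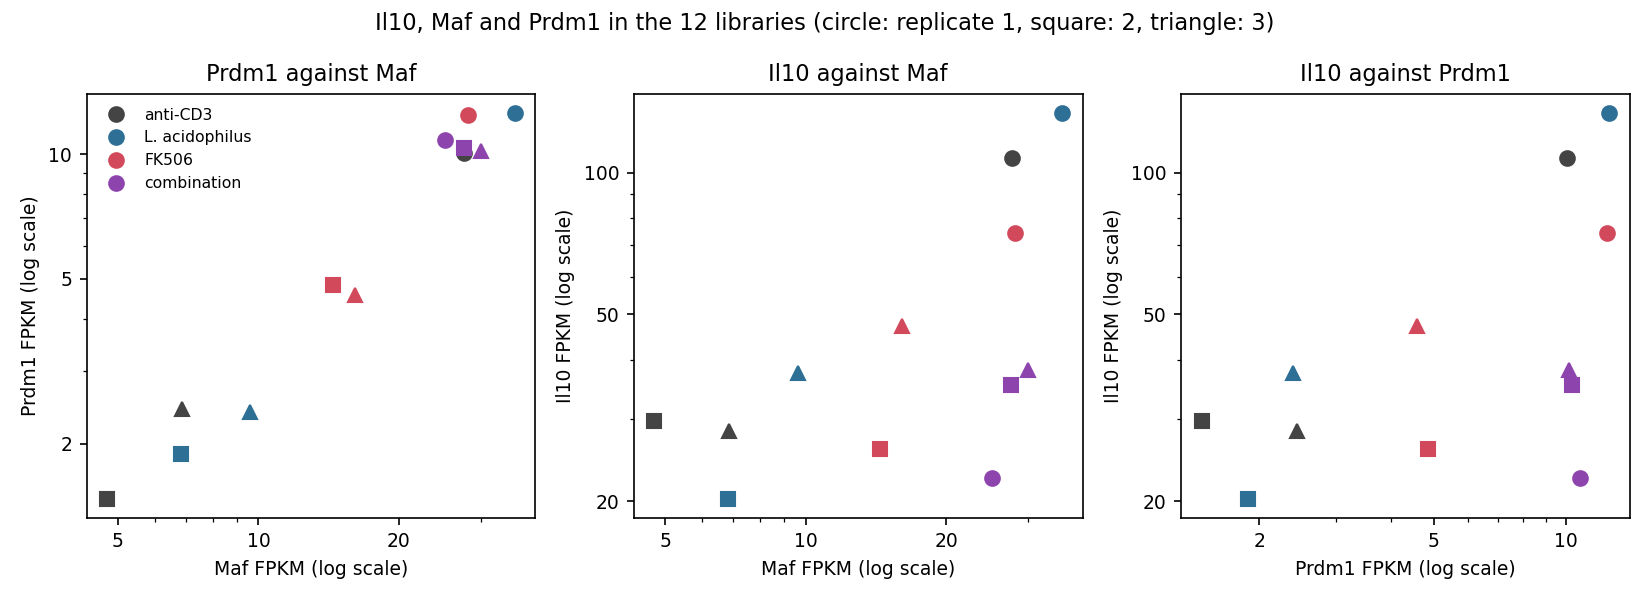
FPKM of *Prdm1* against *Maf*, of *Il10* against *Maf* and of *Il10* against *Prdm1* in the 12 libraries, on log axes, with colour for the treatment and the symbol for the replicate. *Maf* and *Prdm1* lie along a line, while the combination libraries have *Maf* at 25.1 to 30.0 and *Prdm1* at 10.2 to 10.8 with *Il10* at only 22.4 to 38.0, and replicate 1 of the other groups has *Maf* at 27.6 to 35.5 and *Prdm1* at 10.1 to 12.6 with *Il10* from 74.4 to 134.

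The levels of *Maf* and *Il10* did not stand in one ratio over the libraries. The 3 replicate 1 libraries of anti-CD3 alone, *L. acidophilus* and FK506 had *Maf* at 27.6, 35.5 and 28.2 and *Il10* at 107, 134 and 74.4, and the 3 combination libraries had *Maf* at 25.1, 27.6 and 30.0 and *Il10* at 22.4, 35.3 and 38.0. These libraries were picked by their values and differ in treatment as well as in replicate, so that the difference has no test.

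*Nfil3* (gene ID 18030, chr13:52967209-52982878), a bZIP repressor first known as a regulator of interleukin 3 expression, had an FPKM of 113, 117 and 114 with anti-CD3 alone and of 89.5, 87.7 and 99.7 with *L. acidophilus*. With FK506 it was 77.3, 52.4 and 70.8, and with the combination 27.4, 30.5 and 29.9. The 4 groups did not overlap in any of the 6 comparisons and stood in the order anti-CD3 alone, *L. acidophilus*, FK506, combination, from the highest to the lowest. In the combination *Nfil3* fell 4.51-fold against anti-CD3 alone (log2 fold change -2.17, standard error 0.14, edgeR adjusted p = 5.9e-06), 3.43-fold against *L. acidophilus* (-1.78, standard error 0.14, edgeR adjusted p = 2.8e-05) and 2.42-fold against FK506 (-1.28, standard error 0.13, edgeR adjusted p = 0.000198). Genes called lower were 10.8%, 6.64% and 3.6% of all genes tested in these comparisons. FK506 alone was 1.86-fold lower than anti-CD3 alone (log2 fold change -0.90, standard error 0.13, edgeR adjusted p = 0.00102), short of 2-fold, where 19% of all genes tested passed without a fold limit, and was called without FK506 replicate 1 (-1.01). *L. acidophilus* alone differed from anti-CD3 alone by -0.40 (standard error 0.13, edgeR adjusted p = 0.199). Without replicate 1 the fall in the combination was 4.38-fold against anti-CD3 alone (log2 fold change -2.13, edgeR adjusted p = 0.000291).

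*Bhlhe40* (gene ID 20893, chr6:108660629-108666925), a basic helix-loop-helix repressor, had an FPKM of 133, 164 and 186 with anti-CD3 alone and of 78.6, 115 and 119 with *L. acidophilus*. With FK506 it was 67.5, 83.7 and 75.5, and with the combination 98.5, 123 and 119. Anti-CD3 alone was above every library of the other groups, and the combination was above every FK506 library and overlapped with *L. acidophilus*. It fell 2.30-fold with FK506 against anti-CD3 alone (log2 fold change -1.20, standard error 0.17, edgeR adjusted p = 0.000727), where 4.12% of all genes tested were called lower, although limma on quantile-normalized FPKM gave -0.96, short of 2-fold. The combination was 1.63-fold lower than anti-CD3 alone (-0.71, standard error 0.17, edgeR adjusted p = 0.0046), but limma on quantile-normalized FPKM gave -0.19 (limma adjusted p = 0.478). *L. acidophilus* was 1.62-fold lower (-0.70, standard error 0.17, edgeR adjusted p = 0.093), and -0.71 with the replicate number as a block (edgeR adjusted p = 0.0274), again short of 2-fold. The combination and FK506 differed by 0.49 (standard error 0.16, edgeR adjusted p = 0.056). The long noncoding RNA gene *0610040F04Rik* overlaps *Bhlhe40* by 306 bases, and the sources used here do not say whether the counts used the strand.

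*Ahr* (gene ID 11622, chr12:35497979-35534989), a receptor for dioxins and for dietary and microbial ligands, was the lowest of the 8 genes in most libraries. Its FPKM was 3.79, 2.44 and 3.90 with anti-CD3 alone, 2.50, 3.44 and 4.11 with *L. acidophilus*, 2.31, 1.88 and 1.84 with FK506, and 2.52, 2.83 and 2.95 with the combination. Every FK506 library lay below every library of the other groups. FK506 was 1.81-fold lower than anti-CD3 alone (log2 fold change -0.86, standard error 0.20, edgeR adjusted p = 0.0117), short of 2-fold, and was called without anti-CD3 replicate 2 (-1.03). FK506 differed from *L. acidophilus* by -0.77 (standard error 0.20, edgeR adjusted p = 0.0372), short of 2-fold. In replicates 2 and 3 alone this difference was -1.04 (edgeR adjusted p = 0.0173) and was called, as were 6.5% of all genes tested. The combination differed from FK506 by 0.37 (standard error 0.20, edgeR adjusted p = 0.229) and from anti-CD3 alone by -0.49 (standard error 0.20, edgeR adjusted p = 0.0649).

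**Figure D3:**
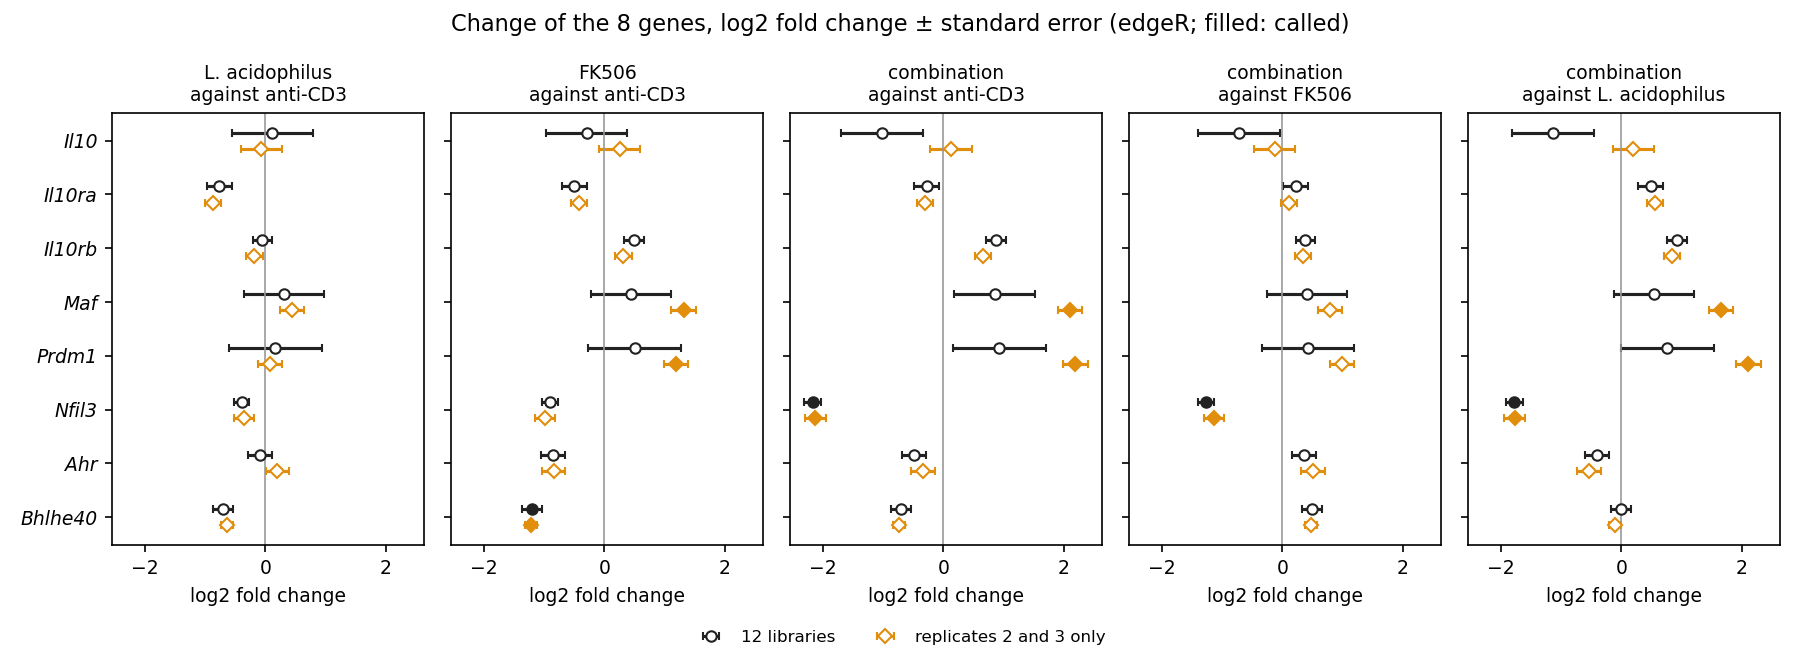
Log2 fold change with its standard error for the 8 genes in 5 comparisons, from edgeR on all 12 libraries (black) and on replicates 2 and 3 only (orange), with filled symbols for called genes. *Nfil3* differs little between them, while for the combination against anti-CD3 alone *Maf* moves from 0.85 to 2.11, *Prdm1* from 0.93 to 2.19 and *Il10* from -1.01 to 0.13.

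Whether the change with *L. acidophilus* was alike with and without FK506 was tested as a departure from additivity, that is, the log2 change with *L. acidophilus* in the presence of FK506 minus that in its absence. Of the 8 genes 2 were called, at an adjusted p under 0.05 with no fold limit, where 4.35% of all genes tested were. *Nfil3* departed downwards by -0.88 (standard error 0.19, edgeR adjusted p = 0.0242), from a change of -0.40 without FK506 to one of -1.28 with it. *Bhlhe40* departed upwards by 1.19 (standard error 0.23, edgeR adjusted p = 0.0186), from -0.70 without FK506 to 0.49 with it. *Il10ra* departed by 0.99 (standard error 0.29, edgeR adjusted p = 0.0832), from -0.77 to 0.22. The departures of *Il10rb* (0.43), *Ahr* (0.45), *Maf* (0.10), *Prdm1* (0.26) and *Il10* (-0.84) did not pass, with edgeR adjusted p from 0.335 to 1. The call of *Nfil3* was lost without *L. acidophilus* replicate 2 or 3, FK506 replicate 1 or 3, or combination replicate 2 or 3, with edgeR adjusted p up to 0.069, and in replicates 2 and 3 alone (-0.78, edgeR adjusted p = 0.118). That of *Bhlhe40* was lost without FK506 replicate 3 (edgeR adjusted p = 0.0511) or combination replicate 2 (0.0538). *Il10ra* was called by DESeq2 on all 12 libraries (1.03, DESeq2 adjusted p = 0.0115, where it called 10.1% of all genes tested), without *L. acidophilus* replicate 1 (1.24, edgeR adjusted p = 0.0327) and in replicates 2 and 3 alone (0.98, edgeR adjusted p = 0.0477). *Il10ra* was also called with the replicate number as a block (0.99, edgeR adjusted p = 0.013), although the number did not pair all the groups of this contrast.

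**Figure D4:**
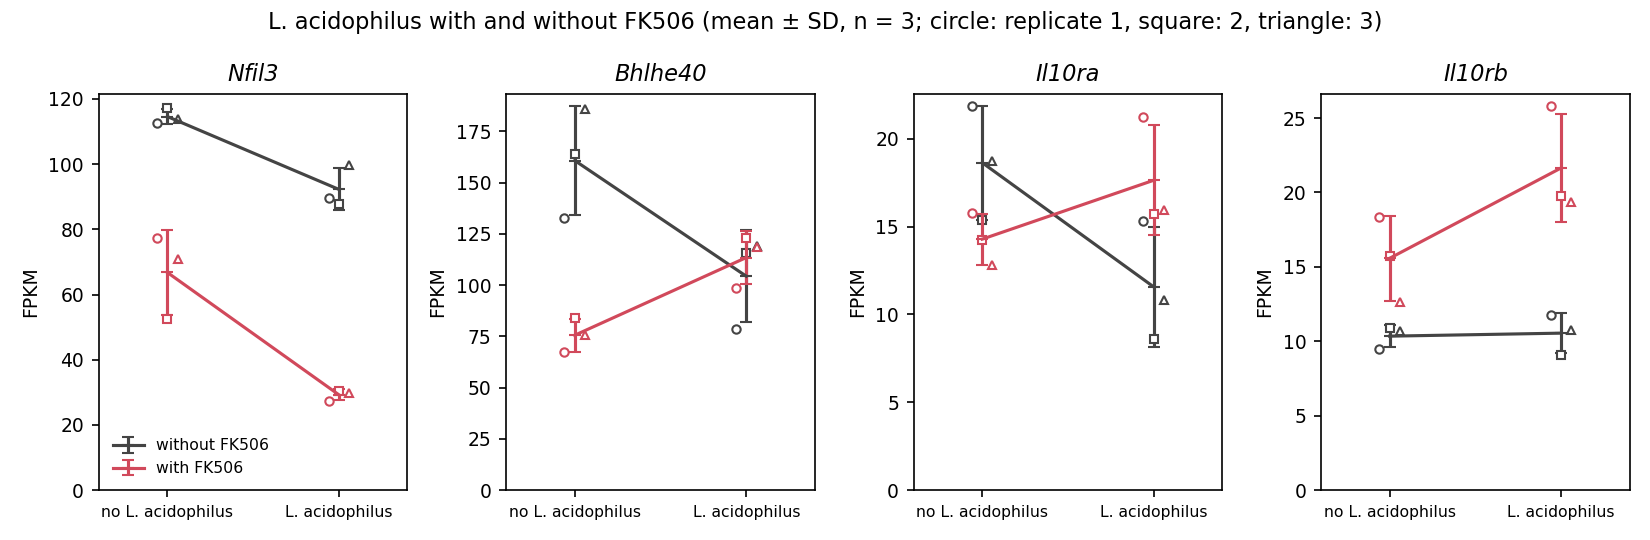
FPKM of *Nfil3*, *Bhlhe40*, *Il10ra* and *Il10rb* without and with *L. acidophilus*, in the absence (black) and presence (red) of FK506, as mean ± SD of 3 libraries with each library as a point. The lines for *Bhlhe40* and *Il10ra* run down without FK506 and up with it, with means of 161 and 104, and of 75.6 and 113, for *Bhlhe40*.

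The genes whose levels over the 12 libraries were most like those of the 8 genes were sought among 12220 expressed genes, by the Pearson correlation of log2 CPM. *Prxl2a* (0.94), *Spp1*, which encodes osteopontin (0.91), and *Plcd4* (0.89) were most like *Il10*, and 2 genes exceeded 0.9. *Maf* was most like *Prdm1* (0.98), *Ahrr*, the repressor of AHR (0.94), and *Dnaja4* (0.93), and *Prdm1* was most like *Maf*, *Dnaja4* (0.95) and *Gpr15*, a homing receptor for the colon (0.94). *Ankzf1* (0.95) led for *Il10ra*, *Rnf19a* (0.95) for *Ahr* and *Arl14ep* (0.96) for *Bhlhe40*. The patterns of *Nfil3* and *Il10rb* were common ones, shared at over 0.9 by 1184 and 318 genes, with *Rnf19b* (0.99) and *Ccndbp1* (0.98) the closest.

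Downstream of the receptor, the signaling genes moved in both directions in the combination. Of 5 genes *Jak1*, the kinase bound to IL-10RA, rose and *Socs3* and *Bcl3*, both known targets of STAT3, fell, and 2 did not pass, for the combination against anti-CD3 alone, where 24.6% of all genes tested were called and 10.8% were called lower. *Jak1* had an FPKM of 45.1, 37.2 and 52.5 with anti-CD3 alone and of 123, 106 and 103 with the combination (log2 fold change 1.09, standard error 0.13, edgeR adjusted p = 5.02e-05). *Socs3*, a feedback inhibitor of cytokine signaling, had 78.2, 45.5 and 53.2 and then 29.4, 14.6 and 13.7 (-1.86, standard error 0.32, edgeR adjusted p = 0.000694), and *Bcl3* had a log2 fold change of -1.27. *Tyk2* (0.65) stayed under 2-fold, and *Stat3*, the main effector, had a log2 fold change of -0.24 (edgeR adjusted p = 0.137). With FK506 alone the mean FPKM was 84.8 for *Jak1* and 31 for *Socs3*, against 110 and 19.2 with the combination. Against FK506 the combination had 0 of the 5 genes called, where 7.44% of all genes tested were called.

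Of the cytokines of the IL-10 family and their other receptors, 6 of 9 genes could be tested, and 2 fell in the combination against anti-CD3 alone (10.8% of all genes tested were called lower). *Il24*, a cytokine that signals through the IL-20 receptors, had read counts of 19334, 9117 and 12134 with anti-CD3 alone, 10268, 3017 and 6216 with *L. acidophilus*, 5660, 1516 and 6039 with FK506, and 0 in all 3 combination libraries. It was the only gene at 0 in every combination library that had at least 1000 counts in every other library. Against a floor of 3 counts per library, which covers counting error only, the combination had at least 4031-fold less of it than anti-CD3 alone, 1938-fold less than *L. acidophilus* and 1388-fold less than FK506. *Il19* had an FPKM of 0.145 to 0.447 with anti-CD3 alone and of 0 to 0.0561 with the combination, from read counts of 0 to 4, and its call was not made in replicates 2 and 3 alone (log2 fold change -2.80, edgeR adjusted p = 0.066). *Il22*, which signals through IL-10RB, had 19.3, 8.63 and 9.58 with anti-CD3 alone and 40.2, 3.36 and 3.48 with the combination, so that its direction differed between replicates (log2 fold change 0.16, edgeR adjusted p = 0.916, and -1.65 with an edgeR adjusted p of 0.000865 in replicates 2 and 3 alone).

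Among 12 other genes known to favour *Il10* in T cells, 1 rose and 4 fell in the combination against anti-CD3 alone, where 24.6% of all genes tested were called, with a median log2 fold change of 0.24 against 0.02 for all genes. *Eomes*, a T-box factor, rose from 0.773, 0.444 and 0.635 to 13.1, 5.95 and 6.34 (log2 fold change 3.56, standard error 0.43, edgeR adjusted p = 5.97e-05). The AP-1 factor *Batf* (-1.97), *Gata3*, the factor of Th2 cells (-1.63), *Irf4*, the partner of BATF (-1.33), and *Il21r*, the receptor of IL-21 (-1.14), fell. *Il27ra*, *Il6st*, *Icos*, *Egr2*, *Egr3*, *Ikzf1* and *Ikzf3* were not called. With FK506 alone the mean FPKM of *Eomes* was 5.72, against 8.46 with the combination. Against FK506 the combination had 0 of the 12 called higher and 2 called lower, where 7.44% of all genes tested were called.

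Of 8 surface proteins of type 1 regulatory (Tr1) cells, which make IL-10 without FOXP3, 3 rose and 1 fell beside the 24.6% of all genes called, with a median log2 fold change of 0.76 against 0.02 for all genes. *Havcr2*, which encodes TIM-3, rose from 0.748, 0.805 and 1.04 to 3.72, 3.77 and 4.00 (1.95, standard error 0.20), *Entpd1*, the ectonucleotidase CD39, had a log2 fold change of 1.73 and *Tigit*, an inhibitory receptor, one of 1.04. *Itga2*, which encodes CD49b and marks these cells, fell (-1.63), and *Lag3*, the other marker used with it, had 0.25 (edgeR adjusted p = 0.169). Without replicate 1 *Tigit* was just under 2-fold (1.00).

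**Figure D5:**
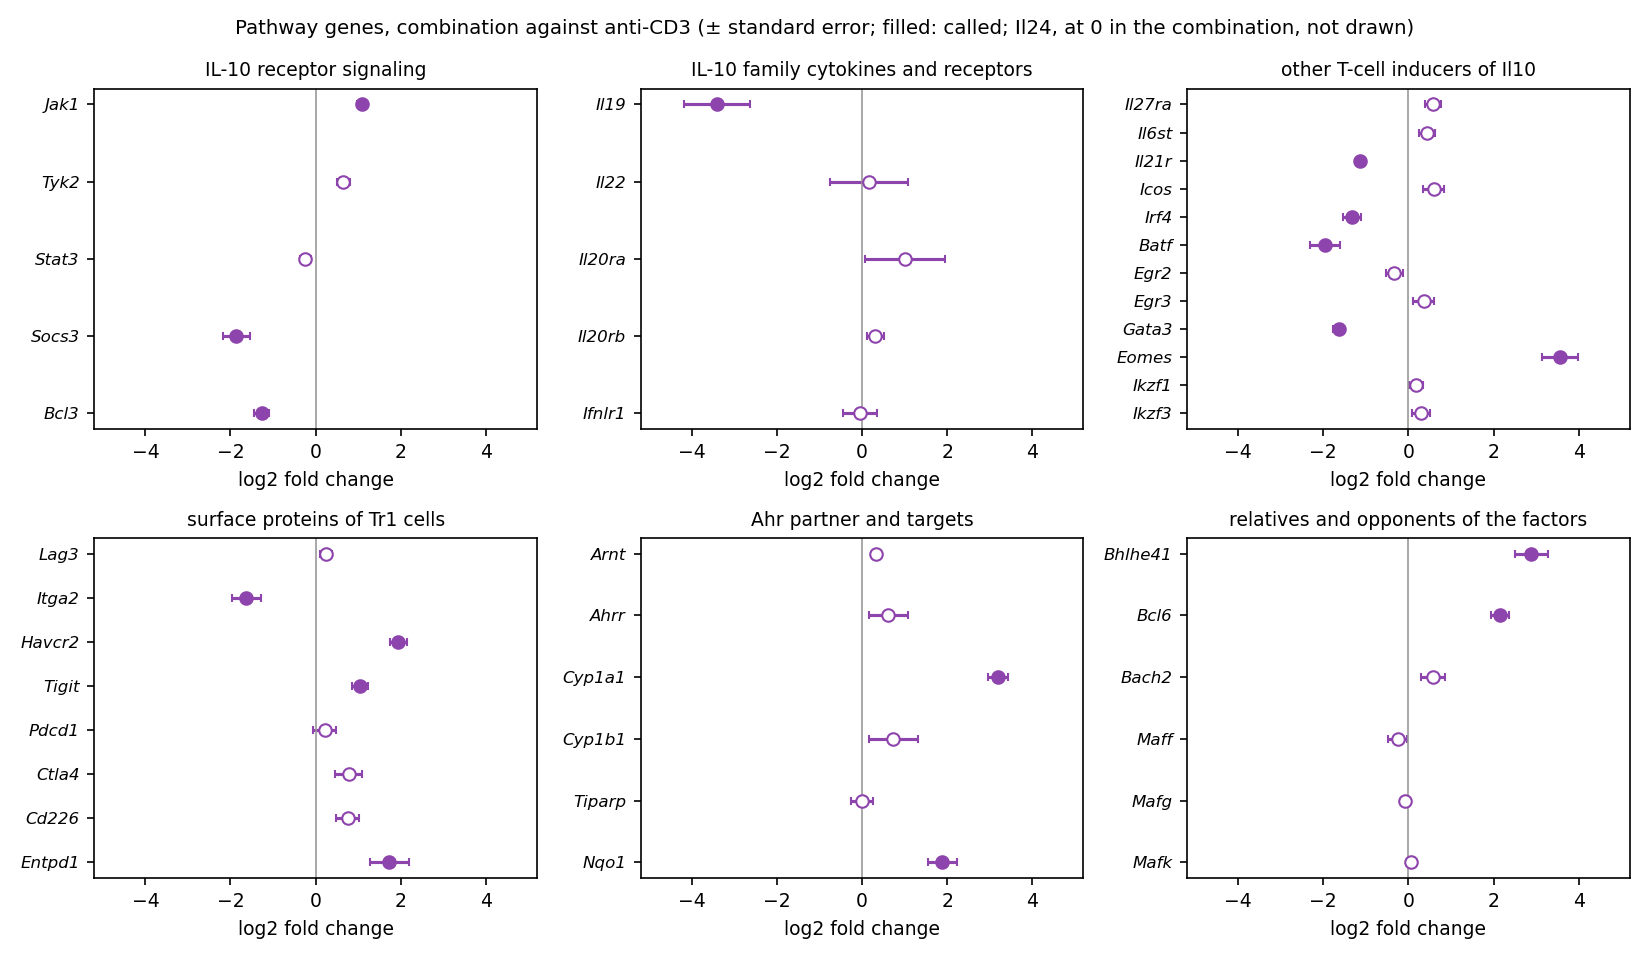
Log2 fold change with its standard error of the genes of 6 pathway lists for the combination against anti-CD3 alone (edgeR, 12 libraries), with filled symbols for called genes. *Il24*, at 0 in the combination, is not drawn, and the called genes run from *Il19* at -3.41 to *Eomes* at 3.56.

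Of the genes tied to AHR 2 of 6 rose in the combination against anti-CD3 alone, and of the relatives and opponents of the factors 2 of 6 rose and none fell in either list, where 24.6% of all genes tested were called. *Cyp1a1*, the best known target of AHR, rose from 0.433, 0.510 and 0.555 with anti-CD3 alone to 4.90, 5.12 and 5.82 with the combination (3.19, standard error 0.23, edgeR adjusted p = 5.9e-06), with 1.34, 1.03 and 1.18 in the *L. acidophilus* and 1.25, 2.19 and 1.43 in the FK506 libraries. *Nqo1*, a quinone reductase, rose as well (1.89), while *Ahr* itself was lower by 0.49 on the log2 scale without passing and *Tiparp*, another target, was at 0.00. Of the relatives and opponents, *Bcl6*, which opposes Blimp-1, rose 4.46-fold (2.16, edgeR adjusted p = 1.89e-05), from 2.96, 2.69 and 2.97 to 12.0, 13.9 and 13.8. *Bcl6* was the only gene of these 6 lists called for *L. acidophilus* against anti-CD3 alone (1.27, standard error 0.21, edgeR adjusted p = 0.0367), a call not made in replicates 2 and 3 alone. *Bhlhe41*, the closest relative of *Bhlhe40*, rose from 0.343, 0.245 and 0.321 to 2.04, 2.92 and 2.95 (2.89, edgeR adjusted p = 0.000124). With FK506 alone the mean FPKM was 10.6 for *Bcl6* and 1.98 for *Bhlhe41*, against 13.3 and 2.63 with the combination. Against FK506 the combination had 0 of these 6 relatives and opponents called, where 7.44% of all genes tested were called. *Bach2*, *Maff*, *Mafg* and *Mafk* were not called for the combination against anti-CD3 alone.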

How the data were processed

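Polyadenylated RNA of the 12 libraries was sequenced by the authors, and the sample labels gave each library its group and replicate. The submitters' processing notes name bcl2fastq 2.20.0, Trimmomatic, HISAT2 2.1.0, StringTie 2.1.3b and the builds mm10 and GRCm38. The deposited counts are whole numbers per gene without normalization. The authors also deposited FPKM, in which no quantile normalization was visible although the methods name one. The deposited TPM values were not used. Counts of genes above 0 in at least 3 libraries were tested with edgeR 4.0.16 in R 4.3.3 (quasi-likelihood test, TMM factors, 1 mean per group, Benjamini-Hochberg adjustment over 23585 genes), and genes were called when the adjusted p was under 0.05 and the change reached 2-fold. The size of each log2 fold change over the root of its F statistic gave its standard error. An exact permutation test of 3 libraries against 3 cannot go below p = 0.1. The members and gene lists were chosen with earlier results of these data known, and all 8 members were named. The lists leave out 2 genes, which are not reported here. Marker lists are summed FPKM. The alternatives were the replicate block, DESeq2 1.42.0, no TMM factors, other filters, limma 3.58.1 on log2(FPKM + 1), log2(FPKM + 0.1) and quantile-normalized values, the libraries compared alone, another fold limit and each library left out; replicates 2 and 3 alone were added after seeing the data. The test was tried on simulated data. Same-numbered libraries deviated together in every pair, with correlations over 0.1, for *L. acidophilus* and anti-CD3 alone (0.471, 0.301 and 0.227) and for the combination and *L. acidophilus* (0.231, 0.240 and 0.142), and only there was the number taken to pair them. The replicate block was nevertheless fitted over all 12 libraries, with the same replicate shifts for all 4 groups. FK506 and anti-CD3 alone, for example, had correlations of 0.385, -0.124 and 0.0523. No 2 libraries of a group differed as little as sampling noise. Figures were drawn with matplotlib 3.10.9.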

Additional observations from a re-analysis of the deposited data

Results flagged for a closer look

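The change with *L. acidophilus* differed between the absence and the presence of FK506 for 2 of the 8 genes, by the test of the difference itself, which 4.35% of all genes tested passed. *Nfil3* differed by -0.88 on the log2 scale (standard error 0.19, edgeR adjusted p = 0.0242), with means of 115 and 92.3 FPKM without FK506 and of 66.8 and 29.3 with it. *Bhlhe40* differed by 1.19 (standard error 0.23, edgeR adjusted p = 0.0186), with means of 161 and 104 FPKM without FK506 and of 75.6 and 113 with it. *Nfil3* was lower in 3 of 3 *L. acidophilus* libraries in either setting, whereas *Bhlhe40* was lower in 3 of 3 without FK506 and higher in 3 of 3 with it. The call of *Nfil3* was lost on leaving out any 1 of 6 libraries and that of *Bhlhe40* on leaving out either of 2, as given in the report. In those fits *Nfil3* differed by -0.77 to -0.91 (edgeR adjusted p from 0.0502 to 0.069). *Bhlhe40* differed by 1.19 and 1.14 (edgeR adjusted p = 0.0511 and 0.0538).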

How the results depend on the processing

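Of the values under the alternatives, 1177 kept their direction and their side of the threshold, 33 passed it newly, 11 no longer passed it and 59 changed direction. *Nfil3* for the combination stayed called under every alternative run, with log2 fold changes from -2.21 to -1.79 against anti-CD3 alone. With no fold limit, the genes called were 3 for FK506 (19% of all genes tested) and 3 for the combination (43.3%) against anti-CD3 alone, 2 for the combination (33.6%) and 2 for FK506 (7.52%) against *L. acidophilus*, and with a 2-fold limit 1 departed from the sum (2.37%). Without TMM factors and with limma on log2(FPKM + 0.1), 2 were called for the combination against either anti-CD3 alone (24.6% and 20.4% of all genes tested) or *L. acidophilus* (16.8% and 14.8%), and limma on quantile-normalized values called 0 for FK506 against anti-CD3 alone (4.02%). In replicates 2 and 3 alone, 3 were called for FK506 (9.96%), 3 for the combination (25.8%) and 0 for *L. acidophilus* (0.0136%) against anti-CD3 alone, and 3 for the combination (18.2%) and 2 for FK506 (6.5%) against *L. acidophilus*. With each library left out, the called genes were 1 to 2 for FK506 and 1 to 3 for the combination against anti-CD3 alone, 1 to 3 for the combination against *L. acidophilus*, 1 for it against FK506, 0 for *L. acidophilus* against anti-CD3 alone and for FK506 against *L. acidophilus*, and 0 to 3 for the departure. Of all genes tested, 7.12% to 11%, 20.4% to 25%, 13.8% to 17.4%, 4.18% to 8.19%, 0.00428% to 0.723%, 2.87% to 6.31% and 1.42% to 6.25% were called in the same order. FK506 had 2 called without anti-CD3 replicate 2 or FK506 replicate 1, and the combination 3 without anti-CD3 replicate 1. Against *L. acidophilus* the combination had 3 without *L. acidophilus* replicate 1 and 2 without combination replicate 3. The departure had 3 without *L. acidophilus* replicate 1, 1 without *L. acidophilus* replicate 2 or 3, FK506 replicate 1 or combination replicate 3, and 0 without FK506 replicate 3 or combination replicate 2.

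Blocking on the replicate number, 3 genes were called for the combination against anti-CD3 alone (*Maf* 1.39, edgeR adjusted p = 0.0292, and *Prdm1* 1.56, 0.0172, with *Nfil3*), where 23.9% of all genes tested were called, 2 against *L. acidophilus* (16.7%) and 3 for the departure (*Il10ra* 0.99, 0.013, where 6.69% were called). With the block the count stayed at 1 for FK506 against anti-CD3 alone (10.7% of all genes tested) and for the combination against FK506 (8.14%). It stayed at 0 for *L. acidophilus* against anti-CD3 alone (0.293%) and for FK506 against *L. acidophilus* (5.77%). DESeq2 also called 3 for the departure, where it called 10.1% of all genes tested. Over the 18 same-numbered pairs the mean correlation of deviations was 0.210 (-0.124 to 0.512), against -0.102 over 36 others, and 11 of 12 libraries correlated best with their own number.

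The directions that changed were of differences not called over all 12 libraries without a block, although 2 of them, *Prdm1* for FK506 against anti-CD3 alone (1.20) and against *L. acidophilus* (1.12), were called in replicates 2 and 3 alone. For *Bhlhe40*, the combination against *L. acidophilus* was -0.01, and 0.0105 with the block, 0.13 without TMM factors, 0.0106 with filterByExpr, 0.0006 with no filter, 0.14 and 0.14 with limma at pseudocounts of 1 and 0.1, 0.35 with limma on quantile-normalized values, 0.0064 with the compared libraries alone and 0.0423 with DESeq2. *Il10* for FK506 against anti-CD3 alone became 0.0032, 0.0054 and 0.0074 with limma at pseudocounts of 1 and 0.1 and on quantile-normalized values. In replicates 2 and 3 alone *Il10* was 0.26 for FK506, -0.0684 for *L. acidophilus* and 0.13 for the combination against anti-CD3 alone, 0.20 for the combination and 0.32 for FK506 against *L. acidophilus*, and *Ahr* was 0.20 for *L. acidophilus* against anti-CD3 alone. *Il10rb* for *L. acidophilus* against anti-CD3 alone was 0.0302 without TMM factors and 0.0208 and 0.0221 with limma at pseudocounts of 1 and 0.1. The cause of these changes was not tested.

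With single libraries left out, the direction also changed for *Il10* (FK506 -0.70 to 0.66 and *L. acidophilus* -1.03 to 1.08 against anti-CD3 alone, combination -1.56 to 0.01 and FK506 -0.84 to 0.73 against *L. acidophilus*, departure -1.80 to 0.31), for *Prdm1* (-0.11 to 1.82, -1.23 to 1.48, FK506 against *L. acidophilus* -0.28 to 1.73, departure -1.05 to 1.65), for *Maf* (*L. acidophilus* against anti-CD3 alone -0.77 to 1.52, FK506 against *L. acidophilus* -0.24 to 1.21, departure -1.12 to 1.17), and for *L. acidophilus* against anti-CD3 alone in *Ahr* (-0.26 to 0.0865) and *Il10rb* (-0.13 to 0.0427), and the combination against *L. acidophilus* in *Bhlhe40* (-0.18 to 0.10).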
